A study of Rattus norvegicus with 6 samples.

Results

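Legumain (Lgmn), cystatins F, C and E/M (Cst7, Cst3, Cst6) and cathepsins B, D, L, S, Z and C (Ctsb, Ctsd, Ctsl, Ctss, Ctsz, Ctsc) were followed in HEI-OC1 cells, an established auditory line, after an siRNA to Hnrnpd or a control siRNA. The genes were chosen by symbol, and all 10 had 1 row each among the 18718 rows of the count table. Lgmn and Cst7 were on the list because earlier results of these libraries had called them, and the rest were added as their inhibitor and protease relatives. The siHnrnpd against control values of all 10 are therefore a description, with no test.

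Each group held 3 libraries, siHnrnpd 1 to 3 (genotype given as AUF1 knock down) and control 1 to 3. Both groups were the same line, grown at 37 °C and 5% CO2 with 10% serum. The labels give no siRNA dose, no time after treatment and no separate cultures, so p-values reflect only how much these libraries vary, and that variation may be technical. They name the organism as rat, while HEI-OC1 is usually described as a mouse line. Which species the reads came from was not tested, and levels compared between genes, and counts near 0, carry that limit. The libraries held 28984535 to 35842904 counts. Hnrnpd, the siRNA target, which encodes the mRNA-binding protein AUF1, stood at 269 to 319 CPM (counts scaled to library size) in control and at 177 to 200 CPM in siHnrnpd, so it was reduced and not removed. Among hair cell markers Myo6 had 36.7 ± 4.11 CPM in control (SD, n = 3), while Myo7a had 63 counts over all 6 libraries, Slc26a5 6, Espn 2 and Gfi1 1. The fibroblast and mesenchymal markers Vim, Col1a1 and Fn1 had 4018 ± 88.9, 2093 ± 198 and 1288 ± 70.1 CPM in control (SD, n = 3). Col3a1, Thy1, Pdgfrb, Pdgfra and Lum of that list had 588, 368, 224, 39.7 and 8.17 CPM in control. Col1a2 had 3.16 ± 0.130 CPM, and Dcn and Postn had 29 counts each over all 6 libraries. Among supporting cell and prosensory markers, Cdkn1b, Hes1 and Jag1 had 72.2, 30.6 and 18.5 CPM in control. Lfng, S100a1, Hey2 and Fgfr3 of these had 10.7, 8.67, 4.63 and 2.34 CPM in control. Prox1 of these had 3 counts over all 6 libraries and Ngfr 7. Sox2, Gjb2 and Gjb6 of the same list matched no row, nor did Atoh1, Pou4f3 and Tmc1 of the hair cell list. The library siHnrnpd 3 stood apart in interferon-stimulated genes, with a summed 3147 CPM over 31 genes against 6228 and 6617 CPM in siHnrnpd 1 and 2 and 7571 to 9708 CPM in control.

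Legumain is a lysosomal cysteine protease that cuts after asparagine and also trims cathepsins B, H and L to their 2-chain forms. Cystatins are small inhibitors of papain-like cysteine cathepsins, and cystatins C, E/M and F carry a separate site that binds legumain. Cathepsins B, L, S, Z and C are cysteine proteases, whereas cathepsin D is an aspartic protease that cystatins do not inhibit.

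The promoters of Lgmn and Cst7 are shown because these genes lay furthest from no difference among those described, in opposite directions. They are 300-base windows from RefSeq (rat build GRCr8), from 250 bases before to 50 bases after the annotated start, printed 5′ to 3′ on the gene's strand. The Lgmn window is chr6:127347279-127347578 on the minus strand and the Cst7 window is chr3:159857030-159857329 on the plus strand. Capitals mark matches on either strand to the E-box CACGTG, the AP-1-like pattern TGANTCA (N is any base), the GC box GGGCGG and the CCAAT box. No matches in these windows overlap each other.
Lgmn: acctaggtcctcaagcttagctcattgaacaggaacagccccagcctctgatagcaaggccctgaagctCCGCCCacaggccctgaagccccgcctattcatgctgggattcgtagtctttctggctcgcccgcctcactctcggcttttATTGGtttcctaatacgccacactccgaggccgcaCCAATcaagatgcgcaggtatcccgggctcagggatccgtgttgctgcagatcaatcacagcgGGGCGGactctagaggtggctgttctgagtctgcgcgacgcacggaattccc
Cst7: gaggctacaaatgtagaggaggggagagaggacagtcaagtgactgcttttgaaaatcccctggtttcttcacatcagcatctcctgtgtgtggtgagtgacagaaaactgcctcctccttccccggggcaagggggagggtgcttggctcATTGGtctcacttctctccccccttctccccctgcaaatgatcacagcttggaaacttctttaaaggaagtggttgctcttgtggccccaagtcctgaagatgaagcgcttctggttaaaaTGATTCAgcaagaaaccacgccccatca

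The Lgmn window held 2 GC boxes, starting 181 and 2 bases before the annotated start, and 2 CCAAT boxes. The Cst7 window held 1 match to TGANTCA, reading TGATTCA and starting at base 23 after the annotated start. It also held 1 CCAAT box, with no GC box. GC content was 58.3% for Lgmn and 51.3% for Cst7, against a median of 51.7% over 33469 windows, and the windows held 18 and 3 CG pairs against a median of 7. Of the 10 genes, 8 had a window. The GC box was in 6 of them (Lgmn, Cst3, Ctsd, Ctsl, Ctsz and Ctsc) and in 33.1% of all windows. CCAAT was in 6 (Lgmn, Cst7, Cst3, Ctsd, Ctsl and Ctss) and in 37.5% of all windows. The E-box CACGTG, the core letters of the sites bound by the lysosomal regulator TFEB, was in the Ctsd window alone among the 8 and in 6.42% of all windows. TGANTCA was in the Cst7 window alone and in 7.33% of all. These are matches of letters in rat sequence, not binding sites.

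Lgmn RNA was higher in every siHnrnpd library than in any control library. Lgmn (ENSRNOG00000007089, chromosome 6) had 3221, 3714 and 4259 counts in controls 1 to 3, against 6525, 5696 and 5237 in siHnrnpd 1 to 3. That is 111, 119 and 118 CPM against 186, 172 and 160 CPM. The gap between the highest control and the lowest siHnrnpd library was wider than the range within either group. Means were 116 ± 4.34 and 173 ± 13.1 CPM (SD, n = 3 each), a log2 difference of 0.58 with an SE of 0.074, or 149% of control. It ranked 207 from the highest among 12268 genes tested. As these are bulk libraries, a change in the cells of a type and a change in RNA per cell cannot be told apart, here and below.

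Cst7, the cystatin known mainly from immune cells, was lower in every siHnrnpd library. Cst7 (ENSRNOG00000006767, chromosome 3) had 211, 224 and 223 counts in controls 1 to 3, against 84, 73 and 32 in siHnrnpd 1 to 3. In CPM these were 7.27, 7.18 and 6.17 against 2.40, 2.20 and 0.980. The controls lay close together, and siHnrnpd 3 lay lowest. The mean fell to 27.1% of control, from 6.88 ± 0.611 to 1.86 ± 0.770 CPM (SD, n = 3 each), with a log2 difference of -1.88 and an SE of 0.261, rank 2 from the lowest of the 12268 genes. Without siHnrnpd 3 the log2 difference was -1.59. That library was also the lowest in interferon-stimulated genes, whose mean log2 level was -1.90 from the control mean there against -0.55 and -0.44 in siHnrnpd 1 and 2. The part of this in the Cst7 difference was not tested. Myeloid cells are a usual source of Cst7. Of 13 myeloid markers found, Ptprc had 3 counts over all 6 libraries, Adgre1 2, Csf1r 7, Itgam 9 and Spi1 23. The summed level of all 13 was 63.2 to 67.8 CPM in control and 70.9 to 74.0 CPM in siHnrnpd, of which Cd14 alone made up 60.9 ± 2.62 and 67.4 ± 1.89 CPM (SD, n = 3 each). Without Cd14 the other 12 summed to 4.93 to 5.31 CPM in control and to 4.57, 5.31 and 4.62 CPM in siHnrnpd 1 to 3. Cd68 and Cd53 made up much of that, at 2.50 and 1.16 CPM in control and 2.32 and 0.827 CPM in siHnrnpd. The mean log2 level of the 5 tested markers, relative to the control mean, was -0.15, 0.096 and -0.28 in siHnrnpd 1 to 3 and -0.11 to 0.074 in control. Of 10 lymphoid markers listed, 4 were found. Cd79a, Cd3e, Gzma and Nkg7 had 33, 5, 1 and 1 counts over all 6 libraries. The part of myeloid or lymphoid markers in the Cst7 difference was not tested.

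Cst3, the abundant secreted cystatin C, had 1385, 1565 and 1646 CPM in controls 1 to 3 and 1353, 1248 and 1324 CPM in siHnrnpd 1 to 3. All siHnrnpd libraries lay below all controls, but siHnrnpd 1 and control 1 were close. The log2 difference was -0.23 with an SE of 0.081. Cst6, cystatin E/M, another inhibitor of legumain, was barely read: 1 count in control 1 and 0 in the other 5 libraries. With 0 of 100598991 counts in siHnrnpd, levels up to about 0.0298 CPM (3 counts over the group) could have been missed, and no fold is given.

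The cathepsins split into 3 that were abundant and 3 near the limit of detection. Ctsl, an endopeptidase of the lysosome, had 2171, 2173 and 2055 CPM in controls 1 to 3 and 2439, 2378 and 2179 CPM in siHnrnpd 1 to 3. The groups did not overlap, although siHnrnpd 3 exceeded control 2 by little, and the log2 difference was 0.13 with an SE of 0.074. Ctsd, the aspartic protease, had 755, 818 and 870 CPM in control and 913, 815 and 778 CPM in siHnrnpd. Its groups overlapped, with a log2 difference of 0.037 and an SE of 0.084, and the sign turned without control 1 (-0.026) or without siHnrnpd 1 (-0.031). Ctsb, an endopeptidase that also removes C-terminal dipeptides, had 762, 788 and 767 CPM in control and 782, 709 and 623 CPM in siHnrnpd. These groups overlapped too, with the widest spread in siHnrnpd, and the log2 difference was -0.13 with an SE of 0.086 (-0.062 without siHnrnpd 3).

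**Figure D1:**
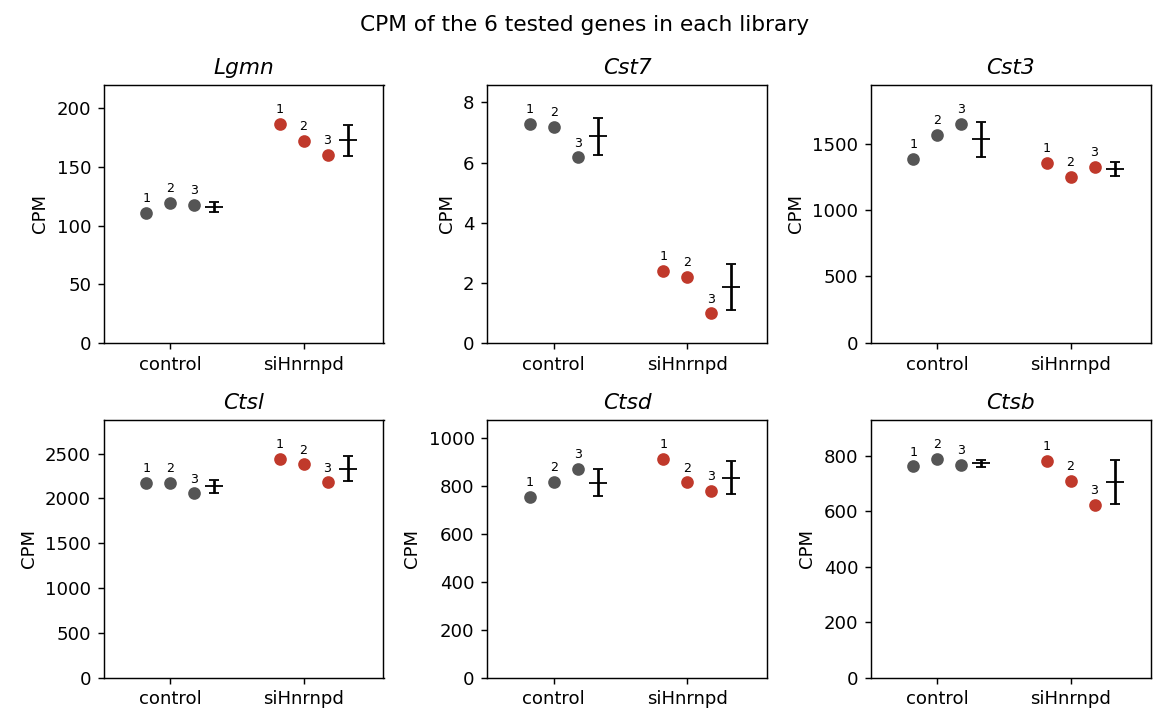
CPM of Lgmn, Cst7, Cst3, Ctsl, Ctsd and Ctsb in each library (points, numbered by replicate), with the group mean and SD (bars, n = 3); the vertical axes start at 0 and differ between panels. Lgmn lies at 111 to 119 CPM in control and 160 to 186 CPM in siHnrnpd, Cst7 at 6.17 to 7.27 and 0.980 to 2.40 CPM, while the Ctsd and Ctsb groups overlap.

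Ctss, the cathepsin that degrades the MHC class II invariant chain, had 0, 2 and 2 counts in controls 1 to 3, against 1, 0 and 2 in siHnrnpd 1 to 3. Ctsc, or dipeptidyl peptidase I, which activates granule proteases of immune cells and is a known target of cystatin F, had 1, 2 and 1 counts in control and 2, 4 and 1 in siHnrnpd. Ctsz, a carboxypeptidase, had 0, 5 and 1 counts in control and 0 in each siHnrnpd library, and 5 of its 6 counts came from control 2. A difference in these 3 genes was not detectable at this depth, where 3 counts over a group are 0.0311 CPM in control and 0.0298 CPM in siHnrnpd. Whether alignment to a rat genome lowered their counts was not tested. Of the 10 genes, 6 passed the filter on low counts and 4 (Cst6, Ctss, Ctsz and Ctsc) did not.

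Among the 6 that passed, Lgmn (higher) and Cst7 (lower) were called in the fit across all genes at an adjusted p under 0.05, which is how they came to be listed. Both calls were lost without control 1, 2 or 3 and without siHnrnpd 1 or 2, while the log2 difference stayed within 0.52 to 0.62 for Lgmn and -2.10 to -1.59 for Cst7. Over all 12268 genes, 0.0815% were called, 0.0245% higher and 0.0571% lower. Groups did not overlap in CPM for 4 of the 6, Lgmn and Ctsl higher and Cst7 and Cst3 lower. The share over all genes tested was 17.0%, with 8.42% higher and 8.57% lower. Since the comparison chose Lgmn and Cst7, and the rest were added as their relatives, nothing is read from these counts.

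Levels between genes were compared as FPKM, the authors' values per length. In control the order was Cst3 (1662 ± 157 FPKM), Ctsl (1105 ± 20.7), Ctsd (343 ± 27.6), Ctsb (339 ± 4.53), Lgmn (49.8 ± 1.98) and Cst7 (5.13 ± 0.387), with SD and n = 3 each. Ctsd and Ctsb did not differ beyond their spread, and the other neighbours did. Cst6, Ctss, Ctsz and Ctsc were at 0.10 FPKM or less in every library. In siHnrnpd the order was the same, at 1436 ± 74.0, 1222 ± 55.3, 356 ± 27.2, 312 ± 32.1, 75.0 ± 5.00 and 1.40 ± 0.569 FPKM (SD, n = 3 each). Cst3 and Ctsl were closer to each other than in control.

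The balance between the protease and its inhibitors followed from these levels. Lgmn made up 2.61%, 2.74% and 2.78% of the summed FPKM of the 7 proteases in controls 1 to 3, against 3.86%, 3.76% and 3.83% in siHnrnpd 1 to 3, so the share was tight within each group. Ctsl held most of that sum, 60.2 ± 1.55% in control and 62.2 ± 1.04% in siHnrnpd, and these groups overlapped. Ctsb held 18.4 ± 0.114% and 15.9 ± 0.687% (SD, n = 3 each), with every siHnrnpd library lower. Cst7 was a small part of the summed FPKM of the 3 cystatins: 0.360%, 0.315% and 0.258% in control and 0.122%, 0.121% and 0.0507% in siHnrnpd. Cst3 made up nearly all of that sum in both groups. With Cstb, an intracellular cystatin outside these 3, Cst3 was 85.6 ± 0.305% of the FPKM of both in the controls against 83.6 ± 0.108% with the siRNA (SD, n = 3 per group). Cst3 exceeded Lgmn 31.5-, 33.2- and 35.3-fold in controls 1 to 3, against 18.3-, 18.4- and 20.9-fold in siHnrnpd 1 to 3. Lgmn exceeded Cst7 9.76 ± 1.11-fold in control and 61.3 ± 28.8-fold in siHnrnpd (SD, n = 3 each), and the wide spread of the latter came from siHnrnpd 3, at 94.5-fold. These are ratios of RNA, and protein or inhibition was not measured.

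**Figure D2:**
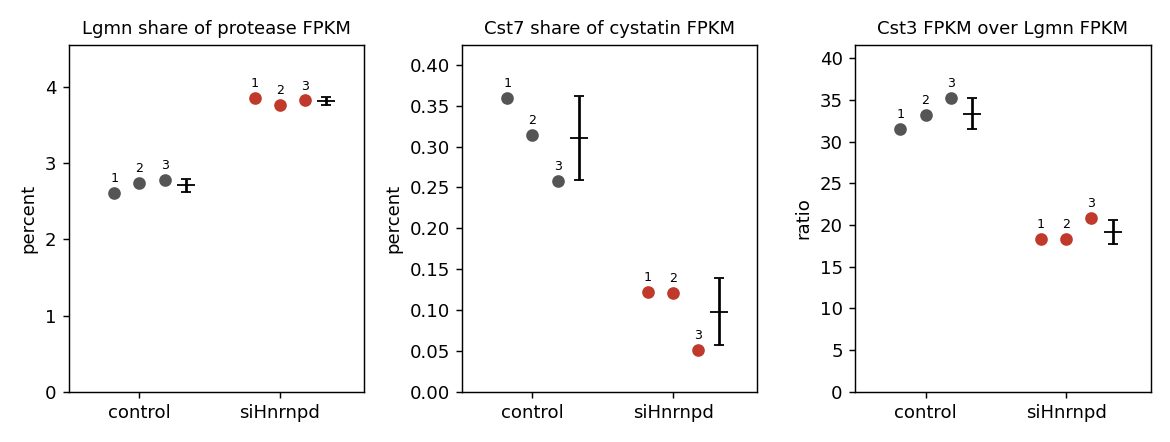
Share of Lgmn in the summed FPKM of the 7 proteases (percent), share of Cst7 in the summed FPKM of the 3 cystatins (percent) and the ratio of Cst3 to Lgmn FPKM, per library (points, numbered by replicate) with group mean and SD (n = 3). The Lgmn share lies at 2.61% to 2.78% in control and 3.76% to 3.86% in siHnrnpd, and the other panels are lower in every siHnrnpd library.

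Genes around these proteases were taken from 7 lists: other cathepsins, other cystatins and cathepsin inhibitors, relatives and partners of legumain, sorting of lysosomal enzymes, control of lysosome genes, other lysosomal proteases and MHC class II processing. Of 118 entries, 82 rows were found and 63 passed the filter. edgeR's quasi-likelihood test called 0 of the 63 with Benjamini-Hochberg adjustment over all genes. At an unadjusted p under 0.05, 3 were higher and 5 lower, 8 of 63, where the share over all genes was 11.0%. limma-voom called 0 of them and 0.106% of all genes, and DESeq2 called 1, Cpq, and 1.41% of all genes with an adjusted p. The median log2 value over the 63 was -0.0031 against 0.0054 over all genes tested, with 31 positive and 32 negative. Groups did not overlap in CPM for 13 of the 63, 5 higher and 8 lower, where the share over all genes tested was 17.0%. The 5 higher included Ctsk, Pigs, Lamtor1 and Tfe3. The 8 lower were Ctsa, Kng1l1, App, Rnaset2, Sort1, Cpq, Scpep1 and Tpp1. Non-overlap of single genes, here and below, is to be read beside that share.

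Of other cathepsins, 4 were tested and 0 were called. Ctsa, the serine carboxypeptidase that also protects lysosomal beta-galactosidase, had 837 ± 38.5 CPM in the controls against 709 ± 28.6 with the siRNA (SD, n = 3 per group), a log2 value of -0.24 (adjusted p = 0.285, edgeR). Its groups did not overlap. Ctsk, the collagen-degrading cathepsin of osteoclasts, was low, at 1.12 ± 0.133 and 1.87 ± 0.560 CPM, with a log2 value of 0.73 (adjusted p = 0.347, edgeR). Ctsf and Ctsh had log2 values of 0.12 and -0.25 (adjusted p = 0.595 and 0.693, edgeR). Among inhibitors, 4 were tested, 0 were called and all 4 values were negative, with a median of -0.13. Over all 12268 genes tested, 5926 were negative, and Cstb among the 4 lay at -0.0031 with an SE of 0.073. Cstb, the intracellular stefin B, had 209 ± 13.7 CPM in the controls against 209 ± 10.2 with the siRNA (SD, n = 3 per group), and its groups overlapped. The kininogen row Kng1l1 had a log2 value of -0.25 (adjusted p = 0.452, edgeR). Rat kininogens are near copies of each other, so that count is uncertain. Serpinb9 and Serpinb6, intracellular serpins, had log2 values of -0.20 and -0.061 (adjusted p = 0.594 and 0.831, edgeR).

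Pigk, the protease of the GPI transamidase and the relative of legumain in sequence family, had 125 ± 6.17 CPM in the controls against 126 ± 1.12 with the siRNA (SD, n = 3 per group), a log2 value of 0.012. Of 11 tested relatives and partners 0 were called, with a median of 0.012. The amyloid precursor App, which legumain can cut, had a log2 value of -0.20, the lysosomal ribonuclease Rnaset2 one of -0.18 and the transamidase subunit Pigs one of 0.19 (adjusted p = 0.325, 0.432 and 0.443, edgeR).

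Many lysosomal enzymes reach their compartment through mannose 6-phosphate tags and their receptors. The 16 tested genes of sorting also held some outside this tag route, among them Sort1. Of these 16, 0 were called, and the median was 0.038. The tag receptors M6pr and Igf2r had log2 values of -0.024 and 0.12 (adjusted p = 0.917 and 0.576, edgeR). Gnptab, the transferase that starts the tag, had a log2 value of -0.21, Nagpa, which uncovers it, one of 0.23, and sortilin (Sort1) one of -0.15 (adjusted p = 0.417, 0.453 and 0.454, edgeR). Of 20 genes that control lysosome genes 0 were called, with a median of -0.033. Lamtor1, an anchor of mTOR signalling on the lysosome, had a log2 value of 0.23, the TFEB relative Tfe3 one of 0.19 and Lamtor2 one of 0.16 (adjusted p = 0.397, 0.452 and 0.481, edgeR). Tfeb itself had 14.3 ± 1.79 and 15.4 ± 1.52 CPM (SD, n = 3 each).

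Of 6 other lysosomal proteases 0 were called. Cpq, a carboxypeptidase, had 87.4 ± 3.39 CPM in the controls against 71.8 ± 1.38 with the siRNA (SD, n = 3 per group), without overlap, and a log2 value of -0.28 (adjusted p = 0.175, edgeR). DESeq2 gave it -0.29 with an adjusted p of 0.0261, and over all 16 other settings the adjusted p ran from 0.0261 to 0.737. Scpep1 and Tpp1 had log2 values of -0.12 and -0.058 (adjusted p = 0.503 and 0.763, edgeR). In MHC class II processing, where Ctss acts, 2 of 10 rows passed the filter: Ifi30, a lysosomal thiol reductase, with a log2 value of 0.14, and RT1-DMa with -0.23 (adjusted p = 0.732 and 0.840, edgeR). The whole list summed to 9.96 to 10.8 CPM in control and 10.1 to 12.7 CPM in siHnrnpd, mostly Ifi30.

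**Figure D3:**
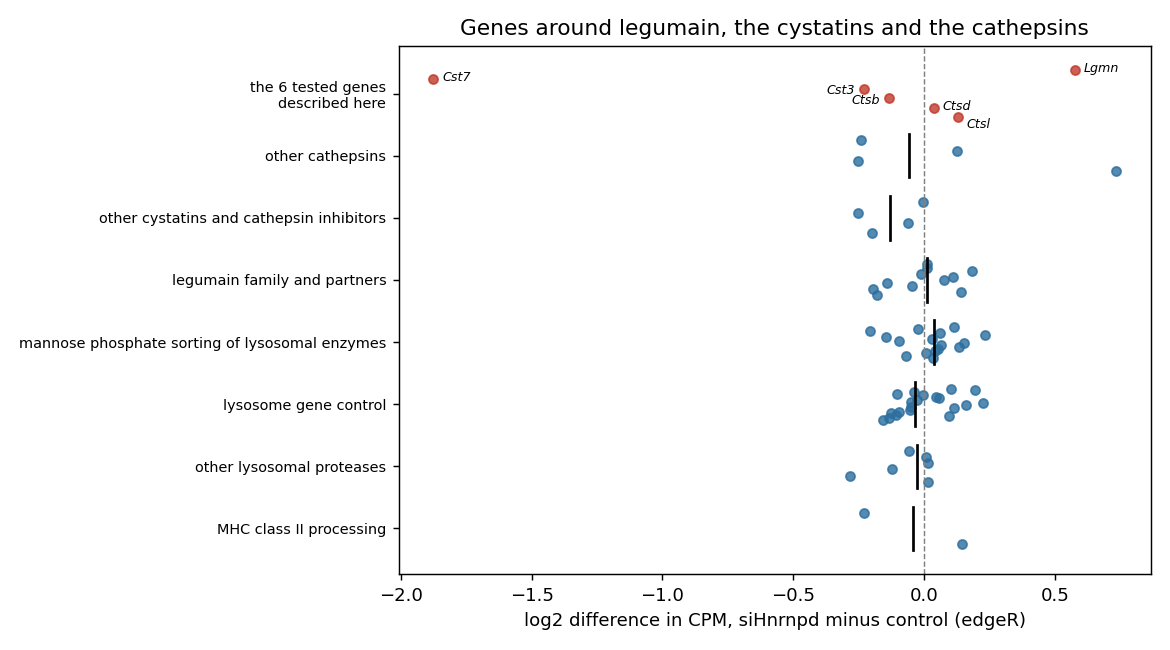
log2 difference in CPM, siHnrnpd minus control, for the 6 tested genes described here (red, named) and for each tested gene of the 7 surrounding lists (blue, 1 point a gene; the black bar is the list's median). Lgmn at 0.58 and Cst7 at -1.88 lie further from 0 than Cst3, Ctsb, Ctsd and Ctsl, and the list medians lie between -0.13 and 0.038.

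The genes whose log2 CPM followed Lgmn most closely over the 6 libraries were Fam219a, Cers5 (a ceramide synthase), Styxl1, Surf6 and Rab4a (an endosomal GTPase), with Pearson r from 0.989 to 0.997 among 9175 genes of at least 5 CPM. Their log2 differences ran from 0.18 in Surf6 to 0.57 in Styxl1. For Cst7 they were Ccne1 (cyclin E1), Orm1 (an acute phase glycoprotein), Tnn (a tenascin), Rdh11 (a retinol dehydrogenase) and Cxcl12 (a chemokine), with r from 0.991 to 0.994 among 9176 genes. Their log2 differences ran from -0.64 in Orm1 to -0.18 in Ccne1, smaller than that of Cst7. Such likeness is common over 6 libraries that share a group difference: r was over 0.9 for 202 genes with Lgmn and 238 with Cst7.

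**Figure D4:**
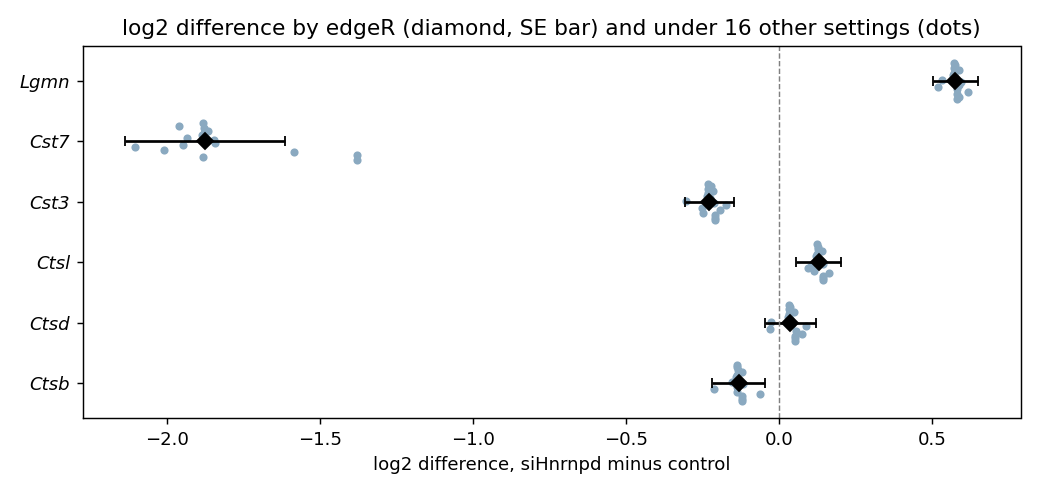
log2 difference, siHnrnpd minus control, by edgeR (diamond, with SE) and under the other 16 settings (dots) for each of the 6 tested genes. Lgmn stays between 0.52 and 0.62 and Cst7 between -2.10 and -1.38, while Ctsd has values on both sides of 0.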

How the data were processed

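RNA-seq counts of 6 HEI-OC1 libraries were analysed (150 nt paired ends, per the labels). The authors aligned reads with TopHat2 to mRatBN7.2, per the submitters' processing notes. The counter, strand setting and annotation remain not given in the sources used here, so reads of overlapping or antisense genes cannot be told apart. The deposited count table holds whole-number reads per gene, not normalized, for 18718 rows. The deposited FPKM table holds the authors' values for 18628 rows. Columns were matched to samples by siRNA and replicate number, and 0 were left over.

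The main test was edgeR 4.0.16 (R 4.3.3) on the counts, with TMM scaling, the filterByExpr filter and a quasi-likelihood fit on group. A gene was called where its p, adjusted by Benjamini-Hochberg over 12268 genes, was under 0.05. TMM-scaled library sizes underlie all CPM except those given for 3 counts over a group, which took the unscaled totals. log2 CPM took a prior count of 2. FPKM was tested with limma 3.58.1. DESeq2 1.42.0 was an alternative, run on all 18718 rows without the filterByExpr filter. The main edgeR fit, edgeR with a replicate block, DESeq2, limma-voom and a limma fit were run on simulated data with known changes. For that limma fit, simulated counts scaled to library size, without gene length, stood in for FPKM. Recovery of large known changes was required of edgeR only. The other scalings, filters and pseudocounts and the leave-one-out fits were not run on simulated data. The members and lists were chosen with earlier results of these data known. Of 211 list entries, markers and interferon-stimulated genes included, 157 matched by symbol, 4 by synonym in RefSeq (GRCr8) and 50 did not match. Named list genes are those called and up to 3 more with the smallest p in each list, then the 5 genes most like Lgmn and Cst7. Marker genes are the highest by CPM and the defining ones near 0. Not every gene these rules take is named. Cstb, Pigk, Ctsh, Tfeb, Cd53, M6pr, Igf2r, Col3a1, Thy1, Pdgfrb, Pdgfra, Lum, Lfng, S100a1, Hey2 and Fgfr3 were named after their values were seen.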

Additional observations from a re-analysis of the deposited data

How the results depend on the processing

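Over all genes, edgeR called 10, and DESeq2 called 162, no filter on low counts 147, upper-quartile scaling 6, limma on log2(FPKM + 1) 0 above an FPKM minimum and 1 with no minimum, and on log2(FPKM + 0.1) 0. Leaving out 1 library gave 0 to 14 calls: 0 without control 1, 2 or 3, and 1 without siHnrnpd 1. The calls of both Lgmn and Cst7 were lost in each of these leave-one-out fits except that without siHnrnpd 3, and on FPKM, and upper-quartile scaling lost that of Cst7. The causes were not tested. DESeq2 called 1 surrounding gene (Cpq) where edgeR called 0, and each of the other settings called 0. DESeq2 was run on 18718 rows, without the filter on low counts, and the main edgeR fit on 12268. These 2 settings therefore differ in both test and filter. With the replicate number as a block, edgeR called 0 genes (neither Lgmn nor Cst7), with 1062 at an unadjusted p under 0.05. No clear pairing by number was seen: deviations of same-numbered libraries correlated at -0.26, 0.14 and 0.10, and not every library correlated best with its own number. With 3 libraries in each group, whose deviations sum to 0, this check cannot decide whether the numbers pair the libraries. Lgmn, Cst7, Cst3, Ctsb and Ctsl had the same sign under all 16 alternatives, and Ctsd under 14. Cst7 moved by more than its replicate spread on log2(FPKM + 1), to -1.38, where the pseudocount shrinks low genes. In leave-one-out means, a check added after the data were seen, the Lgmn share differed by 1.06 to 1.14 percentage points, the Cst7 share by -0.239 to -0.188 and the Cst3 to Lgmn ratio by -15.1 to -13.2. Cst6, Ctss, Ctsz and Ctsc had 1 to 11 counts each over all libraries, too few to compare groups, and neither the depth nor the species of the reads was tested as the cause.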
